A study of Mus musculus with 20 samples.

Results

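The expression of 7 transcription factor genes that mark somites and the polarity within them was followed across bulk RNA sequencing of stem cell derived trunk models of the mouse. The genes were chosen by name, as Meox1, Meox2, Tcf15, Uncx, Tbx18, Foxc1 and Foxc2, with no threshold on their values. They are 7 of the 54446 gene IDs in the deposited tables, and all 7 were among the 14290 genes with a mean of at least 1 TPM that were tested. TPM is an abundance of transcripts per unit of transcript length, scaled to one total in each library, so levels of different genes can be set side by side on it. The comparisons ask how the expression of these genes differed with time, with Matrigel and with compounds added to it.

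All 15 libraries came from F1G4 mouse embryonic stem cells (mESC) of 1 genotype, with the reporters T::H2B-mCherry and Sox2::H2B-Venus, which label cells expressing Brachyury (T) and Sox2. Aggregates of these cells had all been given a pulse of 3 µM CHIR99021, an inhibitor of GSK3 that activates WNT signalling, 48 h after aggregation. The group 96h held precursor structures at 96 h, with 10 pooled structures per library. The other 4 groups were collected at 120 h with 6 pooled structures per library, namely Gastruloid, grown without Matrigel, TLSMG, grown in Matrigel (a basement membrane extract), TLSMGC, grown in Matrigel with CHIR99021 added, and TLSMGCL, which received LDN (a BMP receptor inhibitor) in addition to the gel and CHIR99021. The doses and times of these later additions are not given in the sources used here. Structures were picked for an asymmetric pole before pooling, so each library averages over picked structures of 1 cell line. Each group had 3 libraries, described as biological replicates, and 5 single-cell samples of the series were not analysed here.

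Somites are blocks of paraxial mesoderm that bud from the anterior end of the presomitic mesoderm and later form vertebrae, ribs, skeletal muscle and dermis. Meox1, Meox2 and Tcf15 (paraxis) are expressed across the forming somite, whereas Uncx is restricted to the posterior compartment and Tbx18 to the anterior compartment of each segment, a division that is set up in the presomitic mesoderm by Notch signalling and Mesp2. Foxc1 and Foxc2 act earlier, in presomitic mesoderm and forming somites, where they promote paraxial over intermediate mesoderm fate.

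Library totals were equal by construction of TPM, and relative depth (coverage per unit of FPKM) ran from 3.12 to 6.84, highest in TLSMG replicate 3. The median gene was shifted in comparisons that involve TLSMG, by 0.14 on the log2 scale against 96h, by 0.13 against Gastruloid, and by -0.16 and -0.18 in TLSMGC and TLSMGCL against TLSMG. After median-of-ratios scaling these 4 medians lay between -0.02 and 0.01, so small differences against TLSMG in the values below have to be read relative to those shifts. Of the genes called in TLSMG against Gastruloid, 80.0% were higher with TPM, 51.6% after that scaling and 50.0% with FPKM, and of those called in TLSMGC against TLSMG, 25.5%, 51.6% and 40.9%. For TLSMG against 96h these shares were 72.9%, 48.5% and 61.7%, for TLSMGCL against TLSMG 20.7%, 50.8% and 37.7%, for TLSMGCL against TLSMGC 34.3%, 50.7% and 44.7%, and for Gastruloid against 96h 50.4%, 47.7% and 62.4%. In 96h, replicate 1 had the highest values of Meox1, Meox2, Tcf15, Uncx, Tbx18 and Foxc2, and comparisons with 96h are given without it where that changes a call.

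All 7 genes differed among the 5 groups (limma moderated F test, adjusted p between 2.48e-08 and 0.000204), as did 73.5% of all genes tested, and all 7 differed among the 4 groups at 120 h (adjusted p between 3.43e-08 and 0.0216), as did 62.7% of all genes. From 96h to Gastruloid, 4 of the 7 rose and 2 fell (limma, adjusted p under 0.05), beside 41.2% of all genes called, 20.8% as higher and 20.5% as lower. From 96h to TLSMG, 4 rose and 2 fell, beside 46.0% of all genes, 33.5% higher and 12.5% lower. Against 96h, 3 rose and 4 fell in TLSMGC, beside 40.7% of all genes, 20.6% higher and 20.1% lower. In TLSMGCL 3 rose and 4 fell as well, beside 39.5% of all genes, 17.4% higher and 22.1% lower. The comparisons with 96h share the same 3 control libraries.

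The groups at 120 h were then compared with each other. TLSMG differed from Gastruloid in 1 gene that was higher and 1 that was lower, beside 39.3% of all genes called, 31.5% higher and 7.87% lower. With CHIR99021 added, 1 gene was higher and 5 were lower in TLSMGC than in TLSMG, beside 40.9% of all genes, 10.4% higher and 30.5% lower. After median-of-ratios scaling, 1 was higher and 2 were lower in TLSMG than in Gastruloid, beside 5337 of all genes called, 51.6% of them higher. In TLSMGC against TLSMG that scaling gave 1 higher and 4 lower, beside 5313 of all genes called, 51.6% of them higher. A correction for GC content and length gave 1 higher and 3 lower there, beside 5484 genes called, 56.0% of them higher. The values of TLSMGC and TLSMG did not overlap for any of the 7, beside 52.4% of all genes without overlap. For TLSMGCL against TLSMG, 1 was higher and 4 were lower, beside 44.9% of all genes, 9.31% higher and 35.6% lower. None of the 7 was called between TLSMGCL and TLSMGC by limma, beside 1.18% of all genes, 0.406% higher and 0.777% lower. In that comparison 3 of the 7 had an unadjusted p under 0.05, beside 12.9% of all genes, and 5 showed no overlap, beside 15.8%. The median log2 difference of the 7 genes was 0.53 from 96h to Gastruloid, where the median of all genes was 0.004, and -0.46 from TLSMG to TLSMGC, where the median of all genes was -0.16. It was 0.47 in TLSMG, -0.77 in TLSMGC and -0.49 in TLSMGCL against 96h, -0.01 in TLSMG against Gastruloid, -0.31 in TLSMGCL against TLSMG and 0.18 in TLSMGCL against TLSMGC. The list was chosen with earlier results of these data known, so these counts describe it and are no independent evidence of a direction.

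**Figure D1:**
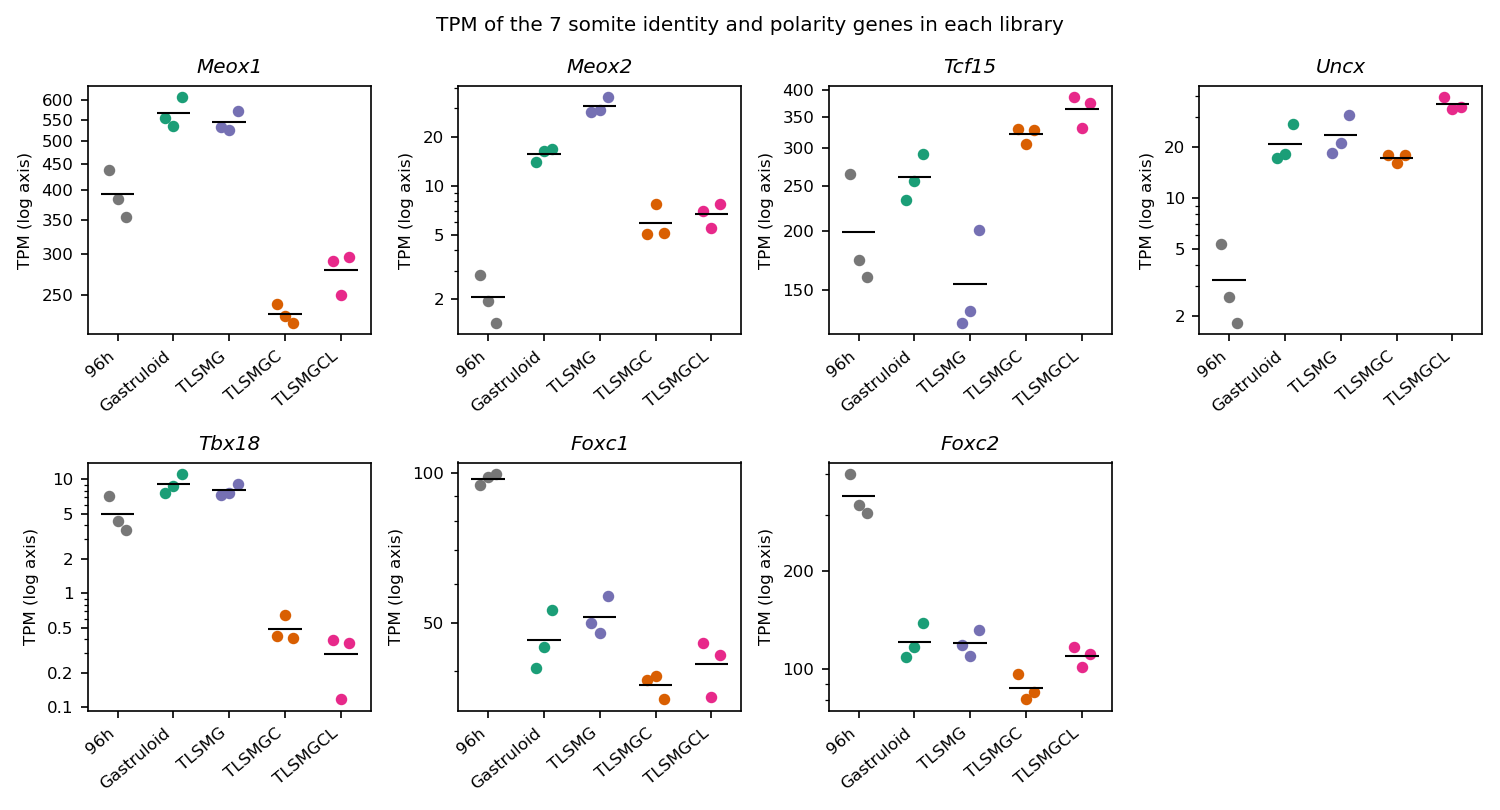
TPM of each of the 7 genes (log axis, 1 panel per gene) in the 5 groups, with 1 point per library and a line at the mean of 3 libraries. Tbx18 lies between 3.58 and 11.2 TPM in 96h, Gastruloid and TLSMG and below 0.65 TPM in all 6 libraries with added CHIR99021, while Tcf15 is highest in those 6 libraries.

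Meox1 was the most abundant of the 7 genes in the 96h, Gastruloid and TLSMG groups, judged by mean TPM. Its levels were 439, 385 and 354 TPM in the 96h libraries, 554, 535 and 608 in Gastruloid, 533, 524 and 572 in TLSMG, 239, 228 and 220 in TLSMGC, and 292, 250 and 296 in TLSMGCL. The groups thus formed 3 tiers that did not overlap, Gastruloid with TLSMG at the top, 96h in the middle and both CHIR99021 groups at the bottom, and within the top tier the ranges overlapped. Meox1 is a homeobox gene expressed in early somites and needed, together with Meox2, for normal somite derivatives. It rose by 0.53 on the log2 scale from 96h to Gastruloid (SE 0.084, limma adjusted p = 0.000228) and by 0.47 from 96h to TLSMG (SE 0.084, adjusted p = 0.000496). The latter difference was 0.29 after median-of-ratios scaling (adjusted p = 0.00492, and between 0.000209 and 0.00492 over all 16 alternatives).

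Adding CHIR99021 to the gel lowered Meox1 from a mean of 543 to 229 TPM, a 2.37-fold difference in means (log2 difference -1.24, SE 0.084, limma adjusted p = 1.68e-07). The level in TLSMGC was also below that at 96h, by 1.72-fold in means (log2 difference -0.77, adjusted p = 8.91e-06). TLSMG did not pass the test against Gastruloid (log2 difference -0.06, 95% interval -0.24 to 0.12, adjusted p = 0.624). It did pass after median-of-ratios scaling (log2 difference -0.23, adjusted p = 0.0249) and with FPKM (-0.23, adjusted p = 0.0207), with adjusted p from 0.0207 to 0.976 over the 16 alternatives. TLSMGCL stood at a mean of 279 TPM, with no overlap with TLSMGC, but the difference of 0.28 did not pass the threshold (SE 0.084, adjusted p = 0.152). This difference passed after median-of-ratios scaling (0.32, adjusted p = 0.0477) and after the GC and length correction (0.30, adjusted p = 0.0483). Over the 16 alternatives its adjusted p ran from 0.0477 to 0.339.

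Meox2, the paralog of Meox1, was much the rarer of the pair in every library. It stood at 2.80, 1.94 and 1.43 TPM in 96h, 14.1, 16.3 and 17.0 in Gastruloid, 28.6, 29.1 and 35.1 in TLSMG, 5.01, 7.70 and 5.08 in TLSMGC, and 7.01, 5.52 and 7.69 in TLSMGCL. Every group was separate from the others except TLSMGC and TLSMGCL, whose ranges overlapped. From 96h to Gastruloid Meox2 rose 7.68-fold in mean TPM (log2 difference 2.48, SE 0.180, limma adjusted p = 1.49e-07), and from 96h to TLSMG 15.1-fold (log2 difference 3.40, SE 0.180, adjusted p = 6.28e-09). It was the 1 gene of the 7 that was higher in TLSMG than in Gastruloid, by 1.96-fold in means (log2 difference 0.93, SE 0.180, adjusted p = 0.0016). A correction for GC content and length left 0.58 of that difference (adjusted p = 0.0214, and between 0.00101 and 0.0379 over the 16 alternatives).

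CHIR99021 in the gel lowered Meox2 5.21-fold in mean TPM (log2 difference -2.22, SE 0.180, limma adjusted p = 7.46e-07), yet TLSMGC remained above 96h (log2 difference 1.18, adjusted p = 0.000155). With LDN added as well, Meox2 did not differ detectably from TLSMGC (log2 difference 0.17, 95% interval -0.22 to 0.56, adjusted p = 0.757). The ratio of Meox1 to Meox2 TPM was between 157 and 249 in the 96h libraries, between 32.9 and 39.2 in Gastruloid, between 16.3 and 18.7 in TLSMG, between 29.6 and 47.7 in TLSMGC and between 38.5 and 45.3 in TLSMGCL. It was therefore lowest in TLSMG, where Meox2 was highest.

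Meox2 is also known from vascular endothelium, and 9 endothelial marker genes were followed beside it. Their summed level was between 10.1 and 14.9 TPM in 96h, between 34.6 and 45.8 in Gastruloid, between 267 and 324 in TLSMG, between 25.1 and 84.5 in TLSMGC and between 12.8 and 21.2 in TLSMGCL. In TLSMG, 8 of the 9 were higher than in Gastruloid and 9 of 9 were higher than in 96h, and 9 of 9 were lower in TLSMGC than in TLSMG. The shares of all genes called in these directions were 31.5%, 33.5% and 30.5%. From TLSMGC to TLSMGCL, 3 of the 9 were lower and 0 higher (median log2 difference -1.06), beside 1.18% of all genes called. Meox2 differed by 0.17 there (95% interval -0.22 to 0.56) and was not called. All 3 marker calls were lost when only these groups were fitted. Kdr, a VEGF receptor, had a mean of 5.80 TPM in Gastruloid and 95.3 in TLSMG (log2 difference 3.83, limma adjusted p = 2.44e-05), and none of the 9 was listed at 0 throughout a group. The part of endothelial cells in the Meox2 values was not tested. In bulk libraries, fewer cells of a type and less RNA per cell cannot be told apart, for Meox2 as for the other genes here.

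Tcf15 (paraxis) encodes the basic helix-loop-helix factor needed for somites to become epithelial. Its levels were 264, 173 and 159 TPM in 96h, 233, 256 and 292 in Gastruloid, 127, 135 and 201 in TLSMG, 330, 307 and 329 in TLSMGC, and 386, 332 and 376 in TLSMGCL. Both CHIR99021 groups lay above every other library, TLSMG was below Gastruloid, and 96h overlapped both Gastruloid and TLSMG. It was the 1 gene of the 7 that rose with CHIR99021 in the gel, 2.08-fold in mean TPM (log2 difference 1.08, SE 0.182, limma adjusted p = 0.000402). In TLSMGCL it was 2.36-fold above TLSMG (log2 difference 1.26, adjusted p = 0.000104) and not detectably different from TLSMGC (log2 difference 0.18, 95% interval -0.21 to 0.57, adjusted p = 0.75).

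In Matrigel alone Tcf15 was lower than in Gastruloid by 1.69-fold in means (log2 difference -0.77, SE 0.182, limma adjusted p = 0.00499). Its difference from 96h did not pass the threshold in Gastruloid (log2 difference 0.42, adjusted p = 0.0824) or in TLSMG (log2 difference -0.36, adjusted p = 0.128). The former moved with 96h replicate 1, whose Tcf15 level of 264 TPM lay within the Gastruloid range, and without it the difference was 0.64 (adjusted p = 0.00749), and it passed with FPKM as well (0.50, adjusted p = 0.0298), within a range of 0.00749 to 0.341 over the 16 alternatives. The latter passed after median-of-ratios scaling of all libraries (-0.53, adjusted p = 0.0235) and without TLSMG replicate 3 (-0.56, adjusted p = 0.0182), within a range of 0.0182 to 0.533. Without 96h replicate 1 it was -0.13.

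Uncx, a homeobox gene of the posterior somite compartment that is needed for the pedicles and proximal ribs, was low at 96 h and higher in every group at 120 h. It measured 5.37, 2.59 and 1.82 TPM in 96h, 17.2, 18.2 and 27.5 in Gastruloid, 18.5, 21.2 and 31.2 in TLSMG, 18.0, 16.0 and 18.0 in TLSMGC, and 39.5, 33.6 and 34.5 in TLSMGCL. All 12 libraries at 120 h exceeded all 3 at 96 h, TLSMGCL exceeded every other library, and the ranges of TLSMG and TLSMGC each overlapped that of Gastruloid. Mean TPM rose from 96h 6.43-fold in Gastruloid (log2 difference 2.42, SE 0.261, limma adjusted p = 6.85e-06), 7.24-fold in TLSMG, and 5.32-fold in TLSMGC, and in TLSMGCL the log2 difference was 3.20 (adjusted p = 5.08e-07).

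Neither the gel nor CHIR99021 added to it gave a called difference in Uncx. The log2 difference was 0.16 for TLSMG against Gastruloid (95% interval -0.40 to 0.72, limma adjusted p = 0.664) and -0.39 for TLSMGC against TLSMG (95% interval -0.95 to 0.17, adjusted p = 0.248). TLSMGCL was 2.07-fold above TLSMGC in means, with no overlap, and this difference of 1.00 on the log2 scale had an adjusted p of 0.0911 (SE 0.261). It passed the threshold with FPKM (adjusted p = 0.0451) and when only these groups were fitted (adjusted p = 0.0154), within a range of 0.0154 to 0.267 over 16 alternatives. Against TLSMG, TLSMGCL was higher by 0.61 (adjusted p = 0.0706), and this difference passed after median-of-ratios scaling (0.82, adjusted p = 0.0208), with FPKM (0.71, adjusted p = 0.0196), after the GC and length correction (0.90, adjusted p = 0.0127), when only these groups were fitted (adjusted p = 0.0318) and without TLSMG replicate 3 (0.82, adjusted p = 0.0316). Adjusted p ran from 0.0127 to 0.219 over the 16 alternatives.

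Tbx18, the T-box gene that maintains the anterior somite compartment and its separation from the posterior one, was low in every library with CHIR99021 added to the gel. Its levels were 7.16, 4.30 and 3.58 TPM in 96h, 7.69, 8.68 and 11.2 in Gastruloid, 7.25, 7.67 and 9.16 in TLSMG, 0.423, 0.648 and 0.407 in TLSMGC, and 0.393, 0.118 and 0.370 in TLSMGCL. The 6 libraries with added CHIR99021 were all below 1 TPM and the 9 others all above 3 TPM, with Gastruloid and TLSMG overlapping each other and lying above 96h. From TLSMG to TLSMGC Tbx18 fell 16.3-fold in mean TPM (log2 difference -2.59, SE 0.195, limma adjusted p = 3.92e-07). From TLSMG to TLSMGCL it fell 27.3-fold (log2 difference -2.80, adjusted p = 1.63e-07). Both groups were also below 96h, TLSMGC by 10.2-fold and TLSMGCL by 17.1-fold in means.

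At these low levels the pseudocount of 1 compresses the change, and with 0.1 the log2 difference from 96h was -3.07 in place of -1.97 for TLSMGC and -3.73 in place of -2.18 for TLSMGCL. Mean read depth over Tbx18 exons was 6.92 to 27.8 in the 9 libraries without added CHIR99021 and 0.254 to 1.49 in the 6 with it. TLSMGCL did not overlap TLSMGC and had the lower values, but the difference was not called (log2 difference -0.21, 95% interval -0.63 to 0.21, limma adjusted p = 0.716, and -0.66 with a pseudocount of 0.1, adjusted p = 0.411, with 0.411 to 0.918 over 15 alternatives). Without added CHIR99021, Tbx18 rose from 96h to Gastruloid by 1.83-fold in means (log2 difference 0.79, SE 0.195, adjusted p = 0.00529). Its rise from 96h to TLSMG of 0.62 (adjusted p = 0.0178) was lost with a pseudocount of 0.1 (adjusted p = 0.0824) and after median-of-ratios scaling (0.47, adjusted p = 0.0601). It was also lost without 96h replicate 2 (0.56, adjusted p = 0.0641), without 96h replicate 3 (0.45, adjusted p = 0.0882) or without TLSMG replicate 3 (0.54, adjusted p = 0.0709), and adjusted p ran from 0.00126 to 0.0882 over 15 alternatives. An unclassified transcript on the opposite strand, D030062O11Rik, overlaps Tbx18 and reached at most 1.23 TPM, and whether strand was used in counting is not given in the sources used here.

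**Figure D2:**
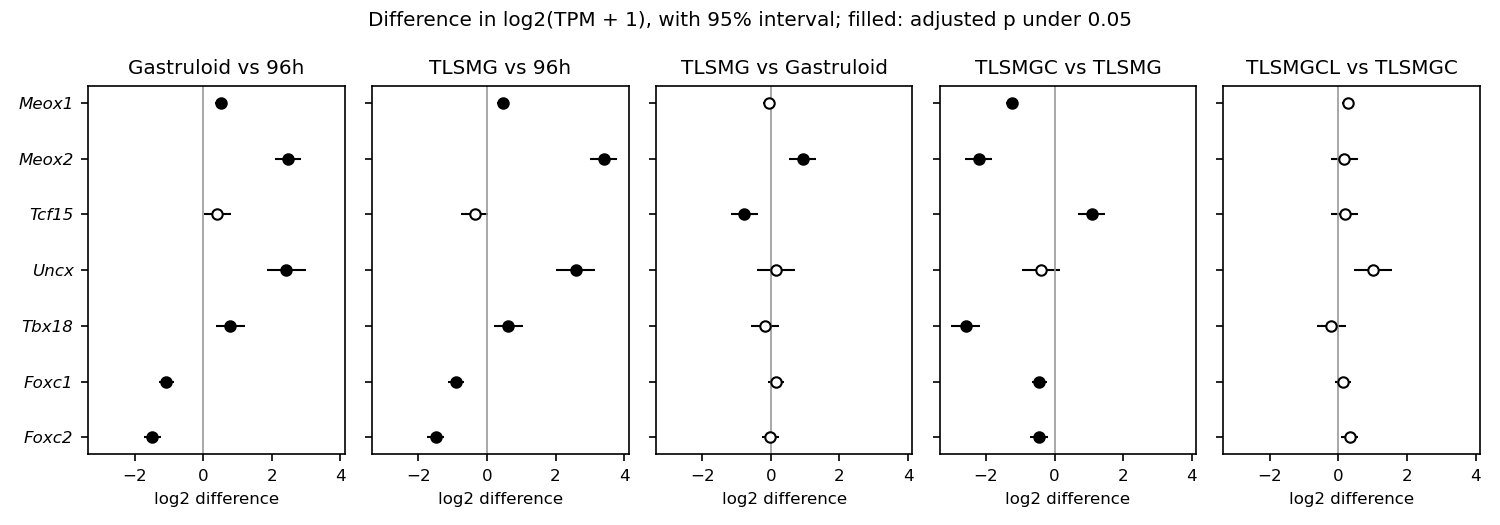
Log2 differences on the log2(TPM + 1) scale for the 7 genes in 5 of the 8 comparisons, with 95% intervals from limma and filled points where the adjusted p was under 0.05. TLSMGC against TLSMG shows Tbx18 at -2.59 and Meox2 at -2.22 on one side and Tcf15 at 1.08 on the other, and TLSMGCL against TLSMGC has no filled point.

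Since Uncx and Tbx18 mark opposite compartments of a somite, their balance was computed in each library as log2((Uncx + 1)/(Tbx18 + 1)) from TPM, a quantity that does not depend on the library's scaling apart from the added 1. It was -0.36, -0.56 and -0.70 in 96h, 1.07, 0.99 and 1.22 in Gastruloid, 1.24, 1.36 and 1.66 in TLSMG, 3.74, 3.37 and 3.76 in TLSMGC, and 4.86, 4.95 and 4.70 in TLSMGCL. The 5 groups were ordered without any overlap, from more Tbx18 than Uncx at 96 h to a large excess of Uncx with CHIR99021 and LDN. The step from TLSMG to TLSMGC was 2.20, made up of -2.59 in Tbx18 and -0.39 in Uncx, of which only Tbx18 was called. It was 3.39 with a pseudocount of 0.1 and 1.63 with FPKM, and Tbx18 lies below the added 1 in TLSMGC. By contrast, the step of 1.21 from TLSMGC to TLSMGCL was made up of a difference of 1.00 in Uncx and -0.21 in Tbx18, neither of them called.

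For each of the 8 comparisons of this balance the exact two-sided permutation test gave p = 0.1, the smallest value that 3 against 3 libraries allow, and 0.1 after Benjamini-Hochberg adjustment over the 8, so this test cannot reach 0.05. From Gastruloid to TLSMG the balance differed by 0.33, the smallest of these steps, and by 0.20 without TLSMG replicate 3. As plain TPM ratios, Uncx was between 0.508 and 0.750 times Tbx18 in 96h, between 2.10 and 2.45 times in Gastruloid, between 2.54 and 3.40 times in TLSMG, between 24.7 and 44.2 times in TLSMGC and between 93.1 and 286 times in TLSMGCL. The last of these rest on Tbx18 levels below 0.4 TPM.

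**Figure D3:**
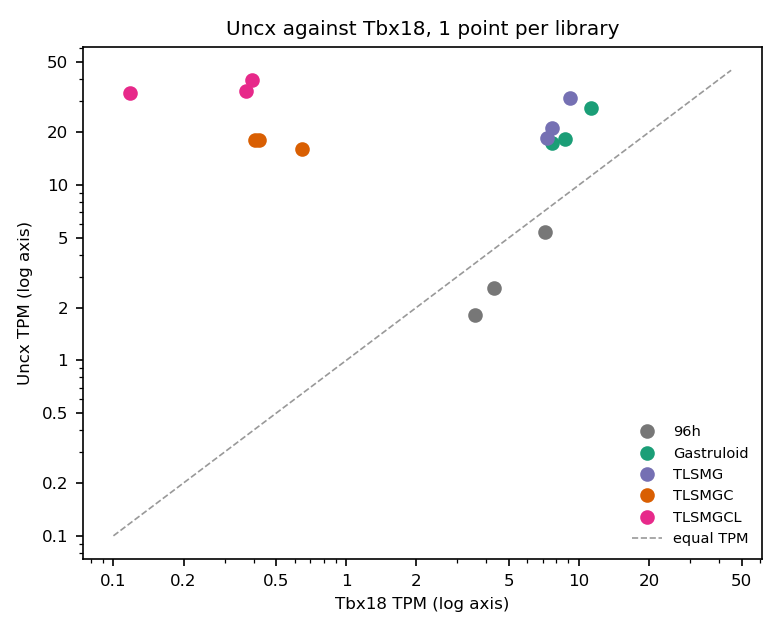
Uncx TPM against Tbx18 TPM in the 15 libraries (both axes log), coloured by group, with a dashed line of equal TPM. The 96h libraries lie under the line, Gastruloid and TLSMG share one cloud above it with Tbx18 between 7.25 and 11.2 TPM, and the 6 libraries with added CHIR99021 are displaced to Tbx18 below 0.65 TPM.

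Tbx18 and Meox2 were the genes of the set with the largest falls from TLSMG to TLSMGC, and the 250 bases before their start sites are shown because both fell together. The windows come from RefSeq on build GRCm38.p6, at chr9:87731261-87731510 (minus strand) for Tbx18 and chr12:37108290-37108539 (plus strand) for Meox2, each written 5′ to 3′ towards the start site with the E-box match in capitals. RefSeq windows were matched for 4 of the 7 genes, and those of Uncx and Foxc1 were not used because their start sites differed from those of the deposited tables.
Tbx18: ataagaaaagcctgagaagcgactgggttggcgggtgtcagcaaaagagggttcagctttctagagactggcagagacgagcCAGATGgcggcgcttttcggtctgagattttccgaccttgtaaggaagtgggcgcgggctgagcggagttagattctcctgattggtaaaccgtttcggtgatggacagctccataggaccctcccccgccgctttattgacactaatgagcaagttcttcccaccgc
Meox2: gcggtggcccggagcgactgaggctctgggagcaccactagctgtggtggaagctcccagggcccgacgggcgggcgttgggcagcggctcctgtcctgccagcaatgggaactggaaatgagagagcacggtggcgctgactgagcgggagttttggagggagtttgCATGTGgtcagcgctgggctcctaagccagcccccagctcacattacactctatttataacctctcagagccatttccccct
GC content was 54.0% for Tbx18, with 15 CpG dinucleotides, and 62.0% for Meox2, with 12, against medians of 52.0% and 6 over 27025 such windows. On both strands, 5 motifs were searched. The E-box CANNTG occurred once in each window, as CAGATG starting 168 bases before the Tbx18 start and as CATGTG starting 82 bases before the Meox2 start, and 66.0% of all windows hold one. No match was found in either window for the TCF/LEF core CTTTGA (in 14.0% of all windows), the T-box site AGGTGT (12.0%), the forkhead site TGTTTAC (3.09%) or the homeobox site TAATTA (4.90%). These are letter matches within the window only.

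Marker genes of other cell types also moved in the comparison in which Meox1, Meox2 and Tbx18 fell. The 9 neural tube markers summed to between 48.2 and 64.5 TPM in 96h, between 361 and 499 in Gastruloid, between 195 and 292 in TLSMG, between 44.2 and 59.9 in TLSMGC and between 61.0 and 72.7 in TLSMGCL, and all 6 that were tested were lower in TLSMGC than in TLSMG. Of all genes, 30.5% were lower there. Pax6 and Olig2 (means of 0.139 and 0.0372 TPM in TLSMGC) passed the filter only through groups where they were higher. The count of 6 is therefore partly set by the filter. Among the markers not tested, Neurog2 had means of 0.533 TPM in TLSMG and 0.510 in TLSMGC, and Olig3 of 1.45 and 0.0763. Dbx2 was listed at 0 in all 6 libraries with added CHIR99021. The 7 pluripotency markers summed to between 114 and 145 TPM in TLSMG and between 37.2 and 69.7 in TLSMGC, with 6 of 7 lower, and the 8 gut endoderm markers to 89.1 to 134 and 42.1 to 80.6, with 5 of 8 lower. With median-of-ratios scaling, FPKM or the GC and length correction, 5 of 7 and 4 of 8 were lower. The part of these cells in the values of the 3 genes was not tested. Among 10 lateral plate and cardiac markers, of which 6 were tested, Prrx1 rose from a mean of 6.96 TPM in TLSMG to 15.4 in TLSMGC, and Isl1 (log2 difference -1.18) and Foxf1 (means of 6.13 and 3.24 TPM) fell. The call of Foxf1 was lost after the GC and length correction (-0.49, limma adjusted p = 0.0684). That of Prrx1 was lost without TLSMG replicate 3 (0.84, adjusted p = 0.064) or TLSMGC replicate 1 (0.77, adjusted p = 0.065). Gata6 (means of 4.40 and 2.04 TPM) and Gata4 (1.76 and 0.811 TPM) did not pass the test (limma adjusted p = 0.0533 and 0.126). Tbx18 is also expressed in epicardium, and the part of such cells in its values was not tested. 

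Foxc1 and Foxc2, closely related forkhead genes, were the members with their highest levels at 96 h. Foxc1 measured 94.6, 98.0 and 99.6 TPM in 96h, 40.6, 44.8 and 53.2 in Gastruloid, 49.9, 47.7 and 56.6 in TLSMG, 38.4, 39.1 and 35.1 in TLSMGC, and 45.6, 35.4 and 43.2 in TLSMGCL. Foxc2 measured 401, 321 and 303 TPM in 96h, 109, 117 and 138 in Gastruloid, 119, 110 and 132 in TLSMG, 96.3, 80.4 and 85.1 in TLSMGC, and 116, 101 and 111 in TLSMGCL. For both genes the 96h libraries lay above all 12 libraries at 120 h, and at 120 h the ranges of neighbouring groups overlapped except that TLSMGC was below TLSMGCL in Foxc2. Foxc1 fell 2.11-fold in mean TPM from 96h to Gastruloid (log2 difference -1.07, SE 0.107, limma adjusted p = 3.4e-06) and Foxc2 fell 2.82-fold (log2 difference -1.49, SE 0.116, adjusted p = 3.16e-07). In TLSMGC the corresponding falls were 2.60-fold and 3.92-fold.

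Matrigel alone left both close to Gastruloid, with log2 differences of 0.16 for Foxc1 (95% interval -0.07 to 0.39) and -0.01 for Foxc2 (95% interval -0.26 to 0.24). In TLSMGC, Foxc1 was 1.37-fold and Foxc2 1.38-fold below TLSMG in means (limma adjusted p = 0.00491 and 0.00683). These modest differences shrank to -0.06 for Foxc1 (adjusted p = 0.579) and -0.12 for Foxc2 (adjusted p = 0.383) after correction for GC content and length, and the call for Foxc2 was also lost after median-of-ratios scaling (-0.28, adjusted p = 0.0515), which left -0.27 for Foxc1 (adjusted p = 0.0233). Over the 16 alternatives adjusted p ran from 0.00491 to 0.579 for Foxc1 and from 0.00635 to 0.383 for Foxc2. For TLSMGCL against TLSMG, Foxc1 was lower by 0.31 (adjusted p = 0.0301), a call lost without TLSMG replicate 3 (-0.24, adjusted p = 0.123) or without TLSMGCL replicate 2 (-0.20, adjusted p = 0.143) and turned to 0.14 by the GC and length correction, with adjusted p from 0.0177 to 0.38.

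The ratio of Foxc2 to Foxc1 TPM was between 3.04 and 4.24 in 96h, between 2.60 and 2.67 in Gastruloid, between 2.30 and 2.38 in TLSMG, between 2.06 and 2.51 in TLSMGC and between 2.55 and 2.85 in TLSMGCL, so that Foxc2 was the more abundant of the pair in all 15 libraries. Marker genes of intermediate mesoderm summed, over 6 genes, to between 63.6 and 76.3 TPM in 96h, between 8.71 and 10.3 in Gastruloid, between 29.4 and 38.7 in TLSMG, between 29.8 and 40.2 in TLSMGC and between 12.3 and 16.5 in TLSMGCL. Lhx1, with a mean of 48.5 TPM in 96h and 2.81 in Gastruloid, made up most of the sum in 96h. Lhx1 and Osr1 had their highest means in 96h, Pax2 and Emx2 in TLSMGC, and Pax8 and Wt1 in TLSMG. From 96h to Gastruloid, 4 of the 5 tested fell and 1 rose, beside 20.5% of all genes lower and 20.8% higher. Wt1 was listed at 0 in 96h and Pax8 in TLSMGCL, and the part of intermediate mesoderm in the Foxc1 and Foxc2 values was not tested.

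Most of the genes that act before and around the 7 in segmentation were lower at 120 h than at 96 h. Of 19 such genes, all of them tested, 16 were lower and 1 was higher in Gastruloid than in 96h, with a median log2 difference of -3.13. The same counts were found for TLSMG (median -3.20) and TLSMGCL (median -1.89), and 17 were lower and 1 higher in TLSMGC (median -2.18). Among all genes, 20.5% were lower than in 96h in Gastruloid, 12.5% in TLSMG, 22.1% in TLSMGCL and 20.1% in TLSMGC. Mesp2, which sets the boundary and the anterior identity of the next segment, stood at 122, 140 and 131 TPM in 96h and at a mean of 3.90 in Gastruloid, 7.18 in TLSMG, 6.64 in TLSMGC and 10.9 in TLSMGCL. Ripply2, a repressor that ends Mesp2 expression, fell from 208, 185 and 159 TPM in 96h to between 0.617 and 7.75 in all 12 libraries at 120 h (log2 difference -5.80 in Gastruloid, SE 0.337, limma adjusted p = 1.51e-08). Its relative Ripply1 was not called against 96h in any group, with means of 9.00 TPM in 96h and 5.64 to 6.96 at 120 h. The levels of Mesp2 and Ripply2 were thus low in the same libraries in which Uncx was high.

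With CHIR99021 in the gel, 7 of the 19 were higher and 3 lower than in TLSMG (median -0.21), while after median-of-ratios scaling 8 were higher and 2 lower. Among all genes, 40.9% were called there with TPM, 10.4% higher and 30.5% lower, with a median of -0.16. Tbx6, a T-box factor of the presomitic mesoderm, rose from a mean of 6.02 to 61.6 TPM (log2 difference 3.19, SE 0.260, limma adjusted p = 7.69e-07), and Msgn1, another presomitic gene, from 1.19 to 36.6 TPM (log2 difference 4.11, SE 0.218, adjusted p = 1.57e-08). Cer1 is a secreted antagonist of BMP and Nodal that is expressed in the anterior compartment of forming somites. Like Tbx18 it was low in both groups with added CHIR99021, but it fell from 96h to Gastruloid and TLSMG, where Tbx18 rose. It measured 404, 179 and 138 TPM in 96h, 18.8, 26.2 and 27.2 in Gastruloid, 11.5, 8.79 and 14.7 in TLSMG, 0.0, 0.139 and 0.122 in TLSMGC, and 0.331, 0.308 and 0.459 in TLSMGCL. TLSMGC was below TLSMG in Cer1 (limma log2 difference -3.52, SE 0.299, adjusted p = 1.13e-06). Mesp2 (log2 difference -0.07, adjusted p = 0.842), Ripply1 (-0.21, adjusted p = 0.57) and Ripply2 (-0.43, adjusted p = 0.324) were not called in that comparison. Between TLSMGCL and TLSMGC, 2 of the 19 were higher and 1 lower (median 0.32), beside 1.18% of all genes called and an all-gene median of -0.04. The calls of Notch1 (0.67) and Efnb2 (0.74) as higher were lost with only these groups fitted (limma adjusted p = 0.189 and 0.0947). With no filter they were lost too (0.101 and 0.0793), as they were without some single libraries. The lower gene was Msgn1, whose mean fell from 36.6 to 15.4 TPM (log2 difference -1.18, adjusted p = 0.0194). That call was lost without TLSMGC replicate 1 (adjusted p = 0.059) or 3 (0.0558) and without TLSMGCL replicate 1 (0.0741) or 3 (0.0781). It was also lost with a pseudocount of 0.1 (-1.22, adjusted p = 0.215) and with no filter (adjusted p = 0.053).

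Of the same 19 genes, 7 were higher and 2 lower in TLSMG than in Gastruloid (median 0.19), but only 2 were higher after median-of-ratios scaling and 1 with FPKM. Among all genes, 39.3% were called there with TPM, 31.5% higher and 7.87% lower, with a median of 0.13. The Mesp2 difference of 0.80 (limma adjusted p = 0.026) fell short when Gastruloid replicate 1 was left out (0.42, adjusted p = 0.101), and also when TLSMG replicate 3 was (0.61, adjusted p = 0.112), and that of Ripply2 of 0.94 (adjusted p = 0.0407) did likewise without these libraries (0.43, adjusted p = 0.157, and 0.70, adjusted p = 0.159). Both were also lost without TLSMG replicate 1 (0.79, adjusted p = 0.0578, and 0.91, adjusted p = 0.0895).

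**Figure D4:**
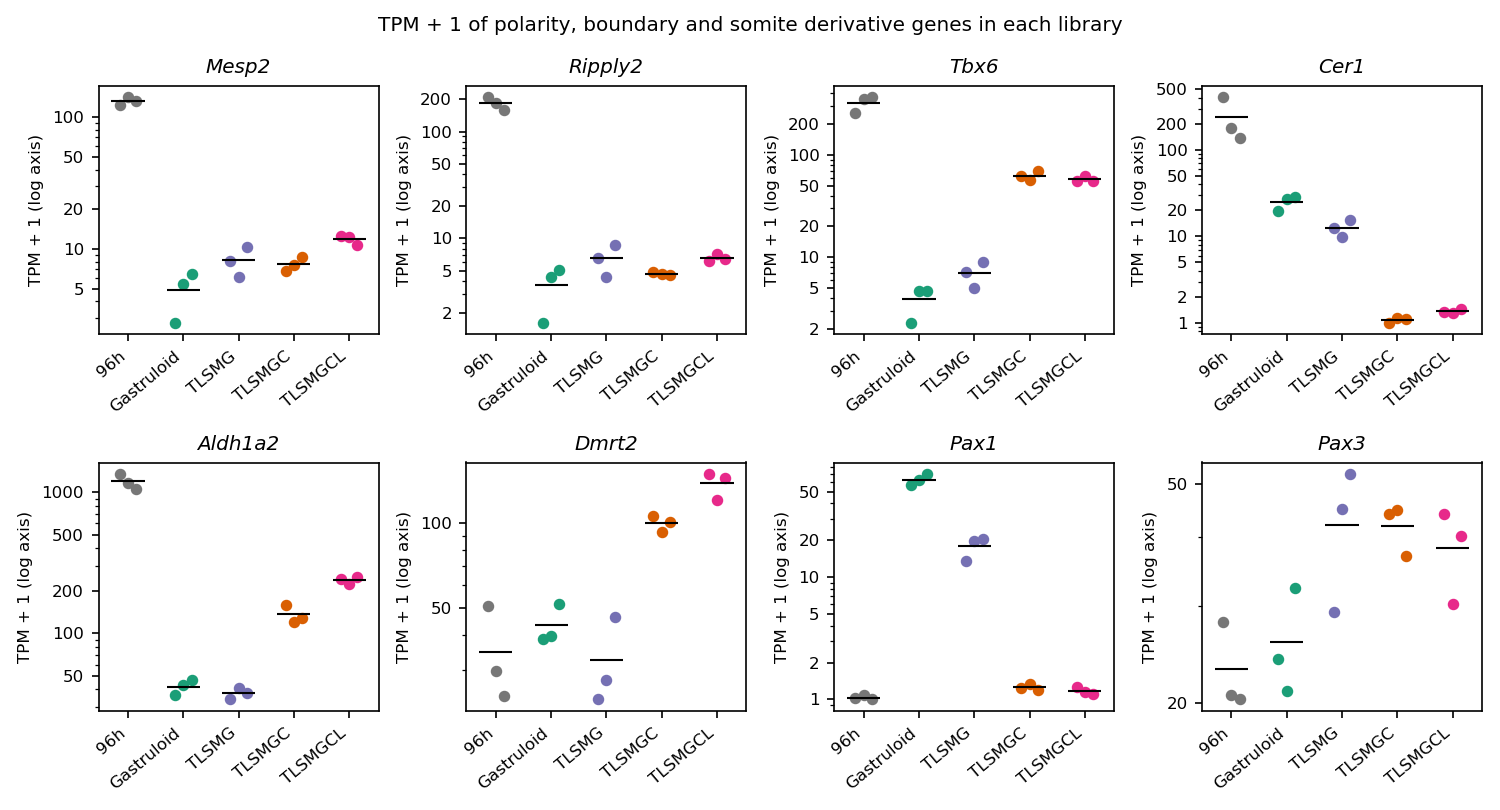
TPM + 1 (log axis) of 8 genes upstream or downstream of the 7, with 1 point per library and a line at the mean of 3 libraries. Mesp2, Ripply2, Tbx6, Cer1 and Aldh1a2 are highest in 96h, Pax1 in Gastruloid, and Dmrt2 in TLSMGC and TLSMGCL, where Cer1 is close to the floor of the axis.

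Genes of somite derivatives and reported targets were described from a list of 14, of which 10 were tested. Pax1, which marks the sclerotome and is induced by hedgehog signals, was listed between 0.0 and 0.0814 TPM in 96h and measured 55.2, 61.0 and 69.0 TPM in Gastruloid and 12.6, 18.7 and 19.6 in TLSMG. With CHIR99021 in the gel it was between 0.205 and 0.349 TPM, and with LDN as well between 0.109 and 0.261. Pax1 was thus highest in Gastruloid, intermediate in TLSMG and low in the other groups, with its lowest values in 96h. From TLSMG to TLSMGC it fell (log2 difference -3.81, SE 0.144, limma adjusted p = 6.18e-10), and TLSMG was below Gastruloid (log2 difference -1.82, adjusted p = 8.59e-06).

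Pax9, a relative of Pax1 in the sclerotome, had the same order for the leading groups at lower levels, with means of 3.58 TPM in Gastruloid and 1.55 in TLSMG. Nkx3-2, a further sclerotome gene that was too low to be tested, had means of 2.34 TPM in Gastruloid and 0.817 in TLSMG and was listed at 0 in all 3 libraries of both 96h and TLSMGC. Dmrt2, a dermomyotome gene, was by contrast highest with CHIR99021, with means of 33.9 TPM in 96h, 42.3 in Gastruloid, 31.6 in TLSMG, 98.8 in TLSMGC and 137 in TLSMGCL, and its rise from TLSMG to TLSMGC was 1.67 on the log2 scale (SE 0.257, limma adjusted p = 0.000196). Pax3, which marks dermomyotome and dorsal neural tube, did not differ detectably in that comparison (log2 difference 0.03, 95% interval -0.44 to 0.50, adjusted p = 0.928).

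Aldh1a2, which makes retinoic acid in somites and anterior presomitic mesoderm, was at 1346, 1166 and 1056 TPM in 96h and at between 33.0 and 45.5 TPM in Gastruloid and TLSMG together. In TLSMGC it measured 159, 119 and 128 TPM and in TLSMGCL 239, 222 and 249, so the 5 groups fell into separate ranges except Gastruloid and TLSMG. It rose from TLSMG to TLSMGC (log2 difference 1.85, SE 0.121, limma adjusted p = 1.15e-07) and from TLSMGC to TLSMGCL (log2 difference 0.81, adjusted p = 0.00556). Lbx1, a gene of migrating muscle precursors and of dorsal spinal cord, had a mean of 14.1 TPM in TLSMG against 0.300 in Gastruloid (log2 difference 3.54, adjusted p = 2.89e-08), and 0.670 in TLSMGCL against 2.93 in TLSMGC (log2 difference -1.22, adjusted p = 0.00115).

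Counts over the derivative list were 4 higher and 2 lower in Gastruloid than in 96h (median log2 difference 0.26), 6 and 1 in TLSMG (median 1.03), 6 and 3 in TLSMGC (median 0.47) and 5 and 3 in TLSMGCL (median 0.28). The shares of all genes called were 41.2%, 46.0%, 40.7% and 39.5% in that order, with medians of 0.004, 0.14, 0.02 and -0.02. Between groups at 120 h they were 3 higher and 3 lower in TLSMG than in Gastruloid (median -0.20, with 2 and 4 after median-of-ratios scaling or with FPKM and 1 and 5 after the GC and length correction), 2 and 6 in TLSMGC than in TLSMG (median -0.74), 2 and 1 in TLSMGCL than in TLSMGC (median -0.07), and 2 and 6 in TLSMGCL than in TLSMG (median -0.90). For all genes the shares called were 39.3%, 40.9%, 1.18% and 44.9% in that order, with medians of 0.13, -0.16, -0.04 and -0.18. In TLSMGC against TLSMG, the 2 that rose were Dmrt2 and Aldh1a2, and those that fell included Pax1, Pax9, Sim1, Lbx1 and Sox9, of which Sim1 was lost after the GC and length correction (-0.19, limma adjusted p = 0.196). Myod1, a muscle determination gene, was listed at 0 in all 15 libraries.

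Relatives of the 7 genes were examined to see how family members moved. Of 12 such genes 7 were tested, and in TLSMGC against TLSMG 1 was higher and 4 were lower (median log2 difference -0.70). Among all genes 40.9% were called there, 10.4% higher and 30.5% lower, with a median of -0.16. After the GC and length correction 1 was higher and 2 were lower, beside 5484 of 14283 genes called, 56.0% of them higher. The calls of Foxd1 (-0.34, limma adjusted p = 0.13) and Foxf1 (-0.49, adjusted p = 0.0684) were lost there. Among T-box genes, Tbx2 fell beside Tbx18, from a mean of 5.02 TPM in TLSMG to 0.431 in TLSMGC (log2 difference -2.07, limma adjusted p = 4.89e-07), whereas Tbx15, the closest relative of Tbx18 together with Tbx22, had means of 1.15 to 2.28 TPM in all 5 groups and was not called between TLSMGC and TLSMG (adjusted p = 0.988). Tbx22 itself had means of at most 0.217 TPM and was listed at 0 in the 6 libraries with added CHIR99021. Scx (scleraxis), the relative of Tcf15 that marks tendon progenitors, fell like Tcf15 from Gastruloid to TLSMG, with means of 14.5 and 6.03 TPM (log2 difference -1.15, adjusted p = 6.14e-05), and fell further to 2.23 TPM in TLSMGC, where Tcf15 rose (log2 difference -1.12, adjusted p = 1.23e-05). Among forkhead genes, Foxb1 rose from 22.9 to 86.4 TPM from TLSMG to TLSMGC (log2 difference 1.86, adjusted p = 2.02e-07) while Foxc1 and Foxc2 were lower.

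Against 96h, the relatives gave 3 higher and 4 lower in Gastruloid (median log2 difference -0.44), 3 and 3 in TLSMG (0.15), 2 and 2 in TLSMGC (0.03) and 3 and 2 in TLSMGCL (-0.18). The shares of all genes called were 41.2%, 46.0%, 40.7% and 39.5%, in that order. Foxl1 fell beside Foxc1 and Foxc2, from a mean of 3.44 TPM in 96h to between 0.587 and 1.20 at 120 h, and Foxd1 rose from 3.99 TPM in 96h to means of 11.8 to 21.6. In TLSMGCL against TLSMGC, where 1.18% of all genes were called, the 1 called relative was Foxf1, with means of 0.701 against 3.24 TPM (log2 difference -1.32, limma adjusted p = 0.00461).

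For each of the 7 genes, the profile over the 15 libraries was compared by Pearson's r of log2(TPM + 1). The genes compared were 11747 others that reached 5 TPM in their highest group, with the 7 left out. These correlations are given as a description, since the 15 points are 5 groups of 3 libraries and any gene with the same group means scores high. The most alike gene was Mxd4 for Meox1 (r = 0.989), with Lasp1 (0.985) and Rab37 (0.980) next. For Meox2 it was Ets1 (r = 0.990), an ETS factor of endothelial and other mesodermal cells, whose means were 8.31 TPM in 96h, 40.8 in Gastruloid, 79.6 in TLSMG, 15.5 in TLSMGC and 17.5 in TLSMGCL, followed by Ppp1r9b (0.983) and Micall2 (0.981).

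Tcf15 was most like Dmrt2 (r = 0.929), then Gm2606 (0.908) and Gm12537 (0.906), and Uncx was most like Sertad4 (0.961), Isoc2a (0.946) and Wscd1 (0.941). These were the lowest best values of the 7. Tbx18 was most like Pcp4 (r = 0.978), a calmodulin regulator whose means were 5.24 TPM in 96h, 10.4 in Gastruloid, 14.3 in TLSMG, 0.244 in TLSMGC and 0.397 in TLSMGCL, then Ssbp3 and Kcnmb4 (both 0.976). Foxc1 was most like Gse1 (0.986), Kcnn3 (0.985) and Stx3 (0.981), and Foxc2 was most like Ajap1 and Chrnb4 (both 0.986) and Gm2274 (0.974). Since the 7 were left out of the genes compared, their likeness to each other was not examined here.

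In the deposited tables the genes lie, on build mm10 (GRCm38), at chromosome 11, 101877510 to 101894374 (Meox1), chromosome 12, 37108540 to 37179534 (Meox2), chromosome 2, 152143561 to 152149097 (Tcf15), chromosome 5, 139543494 to 139548179 (Uncx), chromosome 9, 87702800 to 87731260 (Tbx18), chromosome 13, 31806633 to 31812476 (Foxc1) and chromosome 8, 121116171 to 121118895 (Foxc2). Meox1 and Tbx18 are on the minus strand and the other 5 on the plus strand. Each value sums over all transcripts of a gene, so nothing is said here about exons or isoforms. Apart from the transcript that overlaps Tbx18, overlapping annotated genes were listed at 0 in all libraries (Gm11551 antisense to Meox1, Gm20388 on the strand of Foxc2) or reached at most 0.0399 TPM (Gm48617 within Meox2).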

How the data were processed

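Gene abundances of 15 bulk libraries were read from 15 tables, 1 for each replicate. Per the submitters' processing notes, reads were handled with cutadapt 2.4, STAR 2.7.3a and StringTie 2.0 on build mm10, and the annotation release and strand setting are not given in the sources used here. The deposited TPM values, per the file headers, sum to 1000000 per library and were used for all levels and tests. The deposited FPKM values from the same tables served as an alternative. The deposited coverage (mean read depth over exons) was used to describe depth only. The labels' protocols describe stranded libraries from polyadenylated RNA. TPM keeps no read counts, so no counting intervals or floors were computed, and an exact 0 is given as listed at 0.

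Lines of 1 gene ID were summed. Of 54446 gene IDs, 54409 matched GENCODE M21, 53499 of them with the same start and end, as did all 7 genes. limma 3.58.1 (R 4.3.3) was fitted to log2(TPM + 1) of the 14290 genes with a mean of at least 1 TPM over the 15 libraries, with all 5 groups in 1 model, a mean trend in the prior variance, 8 comparisons and 2 F tests. The added 1 understates changes of low genes. Because the filter uses the mean over all groups, a gene under 1 TPM in a group was tested only if it was higher in others. This favours calls of lower in that group. P-values are two-sided and were adjusted by the Benjamini-Hochberg method over all genes tested, with a threshold of 0.05, and they measure the spread between libraries that the labels call biological replicates of 1 cell line. The fit was tested on simulated data. The balance of Uncx and Tbx18 was compared by exact permutation (scipy 1.17.1, Python 3.11.15). The alternatives were a pseudocount of 0.1, no filter, a mean of at least 5 TPM, median-of-ratios scaling, FPKM, a correction for GC content and length (splines with 5 degrees of freedom), only the groups compared, the replicate number as a block, the highest line of a gene ID, and leaving out each library.

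The 7 genes, the lists and the tests were chosen with earlier results of these data known. Named genes are the 7, Mesp2, Ripply1, Ripply2, Tbx6, Pax1, Pax3, Pax9, Nkx3-2, Dmrt2 and Aldh1a2, the gene of each list with the largest called difference without overlap in a comparison, and the 3 most alike genes of each of the 7. Others (Dbx2, Efnb2, Ets1 apart from its rank, Foxf1, Emx2, Gata4, Gata6, Isl1, Lhx1, Myod1, Neurog2, Notch1, Olig3, Osr1, Pax2, Prrx1, Sim1, Sox9, Tbx15, Tbx22, Pax8) are named because a count or list result turned on them, after their values were seen. Lists not described at length (lateral plate, gut endoderm, pluripotency) are given by counts and sums. The values of 1 gene of the derivative list are not reported here.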

Additional observations from a re-analysis of the deposited data

Results flagged for a closer look

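Meox1 changed from 96h in opposite directions with and without CHIR99021 in the gel. It was higher by 0.47 in TLSMG and lower in TLSMGC (log2 difference -0.77), and the difference between these changes was -1.24 (limma adjusted p = 1.68e-07). Tbx18 did the same, higher by 0.62 in TLSMG and lower in TLSMGC (log2 difference -1.97), with a difference of -2.59 between the changes (limma adjusted p = 3.92e-07). Both changes are taken against the same 3 libraries of 96h, so the tested difference is that of TLSMGC and TLSMG. In each case all 3 libraries of TLSMG were above all 3 of 96h and all 3 of TLSMGC below them. The rise of Tbx18 in TLSMG is the less stable of the changes, with adjusted p from 0.00126 to 0.0882 over 15 alternatives. No sample was tested as an outlier, since groups of 3 are too small for that.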

How the results depend on the processing

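Over 8 comparisons of 7 genes, 328 of 336 values kept their side of the threshold when a library was left out, 5 lost it and 3 gained it, and 3 values that were not called changed sign (Foxc2 and Uncx in TLSMG against Gastruloid). Under the other settings 525 of 552 kept their side, 12 lost it and 13 gained it, 10 values that were not called changed sign (Foxc1 and Uncx in TLSMG against Gastruloid, Foxc2 in TLSMGCL against TLSMG), and 2 that were called did so. The latter were of Foxc1 in TLSMGCL against TLSMG, at 0.14 under the GC and length correction and 0.14 with the replicate block as well, in place of -0.31, and the cause was not tested. The number of genes called between TLSMGCL and TLSMGC was 0 and became 1 with median-of-ratios scaling (Meox1, adjusted p = 0.0477), with FPKM (Uncx, adjusted p = 0.0451), with the GC and length correction (Meox1, adjusted p = 0.0483) and with only the 2 groups fitted (Uncx, adjusted p = 0.0154), all by limma. A minimum mean of 5 TPM removed Tbx18, whose mean over 15 libraries was 4.61 TPM, from the test. With the replicate number as a block, the number of the 7 genes called was the same in all 8 comparisons. Same-numbered libraries did not deviate together (correlations between -0.18 and 0.10 across genes). These values rest on deviations from means of 3 libraries and cannot decide whether same-numbered libraries shared a preparation. The correlation of log2 differences with GC content across genes was -0.42 for TLSMG against Gastruloid and between -0.19 and 0.11 elsewhere. Tbx18 had the lowest depth of the 7, with a mean exon coverage under 1.5 reads per base in the 6 libraries with added CHIR99021.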
